A study of Homo sapiens with 9 samples.

Results

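The genes described here carry glucose into the cell, break it down to pyruvate and lactate, and control the entry of pyruvate into mitochondrial oxidation, and they include the family of pyruvate dehydrogenase kinases (PDK). They were chosen by name. Of 37 listed symbols, 35 had a probe set annotated to a single gene, among 19775 genes measured in this way. SLC16A3, which encodes a lactate exporter, and PDP2, which encodes a pyruvate dehydrogenase phosphatase, had no such probe set and were not analysed here. Where a gene had several probe sets, the one of highest average signal was read.

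Affymetrix arrays measured total RNA of HepG2, an established human hepatoma line, grown with serum in medium free of phenol red. Of 9 arrays, 3 were from cells given DMSO as vehicle, 3 from cells given 100 nM GW7647 for 6 h and 3 from cells given 100 nM GW7647 for 24 h. GW7647 is a drug-like activator of PPARα, a lipid-sensing nuclear receptor. Both times were set against the same vehicle arrays, for which the labels state no duration, so exposure to GW7647 and time in culture cannot be told apart. The labels do not say that replicates were separate cultures, so p-values reflect the spread among these samples alone, and that spread may be technical.

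Glycolysis turns glucose into pyruvate in the cytosol, and several of its steps are catalysed by isozymes from separate genes. PFKFB enzymes make and remove the sugar bisphosphate that activates phosphofructokinase. Pyruvate is either reduced to lactate or carried into mitochondria and oxidised by the pyruvate dehydrogenase complex, which PDK enzymes switch off by phosphorylation and PDP enzymes switch on again. Many of these genes are known targets of the hypoxia-inducible factors, and PDK4 is a known PPARα target in liver and muscle.

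Signals are log2 values, on which a difference of 1 is a 2-fold difference, and changes are log2 differences ± SE from a limma fit over all 19775 genes. A gene passed at a Benjamini-Hochberg adjusted p under 0.05 over all genes. Precision is limited by having 3 arrays in each group. Within a group, arrays correlated across genes at 0.997 to 0.999 and between groups at 0.995 to 0.998. All 9 measured hepatocyte markers of 10 listed had signals at or above those of 84.3% of genes, with a summed level of 17.11 to 17.13 log2 units in vehicle, 17.07 to 17.10 at 6 h and 17.06 to 17.09 at 24 h. The 23 measured markers of 25 listed for other cells of liver had a median position at 38.0% of genes, and their summed level was 12.89 to 12.99 in vehicle, 12.89 to 12.96 at 6 h and 13.00 to 13.08 at 24 h. Among the latter CD14 fell at 6 h (-0.29 ± 0.05, lost without vehicle replicate 3 or a 6 h array, adjusted p up to 0.0693) and ACTA2 rose at 24 h (0.27 ± 0.05). Each is 4.35% of those 23, where 1.91% of all genes fell at 6 h and 5.38% rose at 24 h. The samples are bulk RNA, in which fewer cells of a type and less RNA per cell cannot be told apart, and the part of the markers in the changes below was not tested.

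After 6 h of GW7647, 3 members rose: the glucose transporters SLC2A3 and SLC2A1 and the phosphofructokinase PFKP. They are 8.57% of the 35 members, where 1.64% of all genes rose. By limma 0 members fell, where 1.91% of all genes fell, and 8 members (22.9%) had an unadjusted p under 0.05, as did 16.3% of all genes. After 24 h, 8 members rose, or 22.9%, where 5.38% of all genes rose. These were SLC2A3, SLC2A1, the hexokinase HK2, the regulators PFKFB3 and PFKFB4, the aldolase ALDOC, the enolase ENO2 and the kinase PDK1. The liver glucose transporter SLC2A2 was the 1 member that fell at 24 h, or 2.86%, where 2.80% of all genes fell.

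The median change of the members was -0.01 at 6 h and 0.09 at 24 h, against 0.004 and 0.003 over all genes. Of the 35 members, 30 had a mean signal above the median gene, where calls were more frequent. When the fit was limited to genes above that median, 11 of the 30 members and 1485 of 9887 genes rose at 24 h. The 8 rises at 24 h became 3 when 24 h replicate 1 or 24 h replicate 2 was omitted and 5 when vehicle replicate 1 was. Those 3 are 8.57% of members, where 3.76% and 3.09% of all genes rose, and the 5 are 14.3%, where 3.42% did. HK2 and SLC2A3, and SLC2A2 among the falls, passed at 24 h whichever of the 9 arrays was left out.

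**Figure D1:**
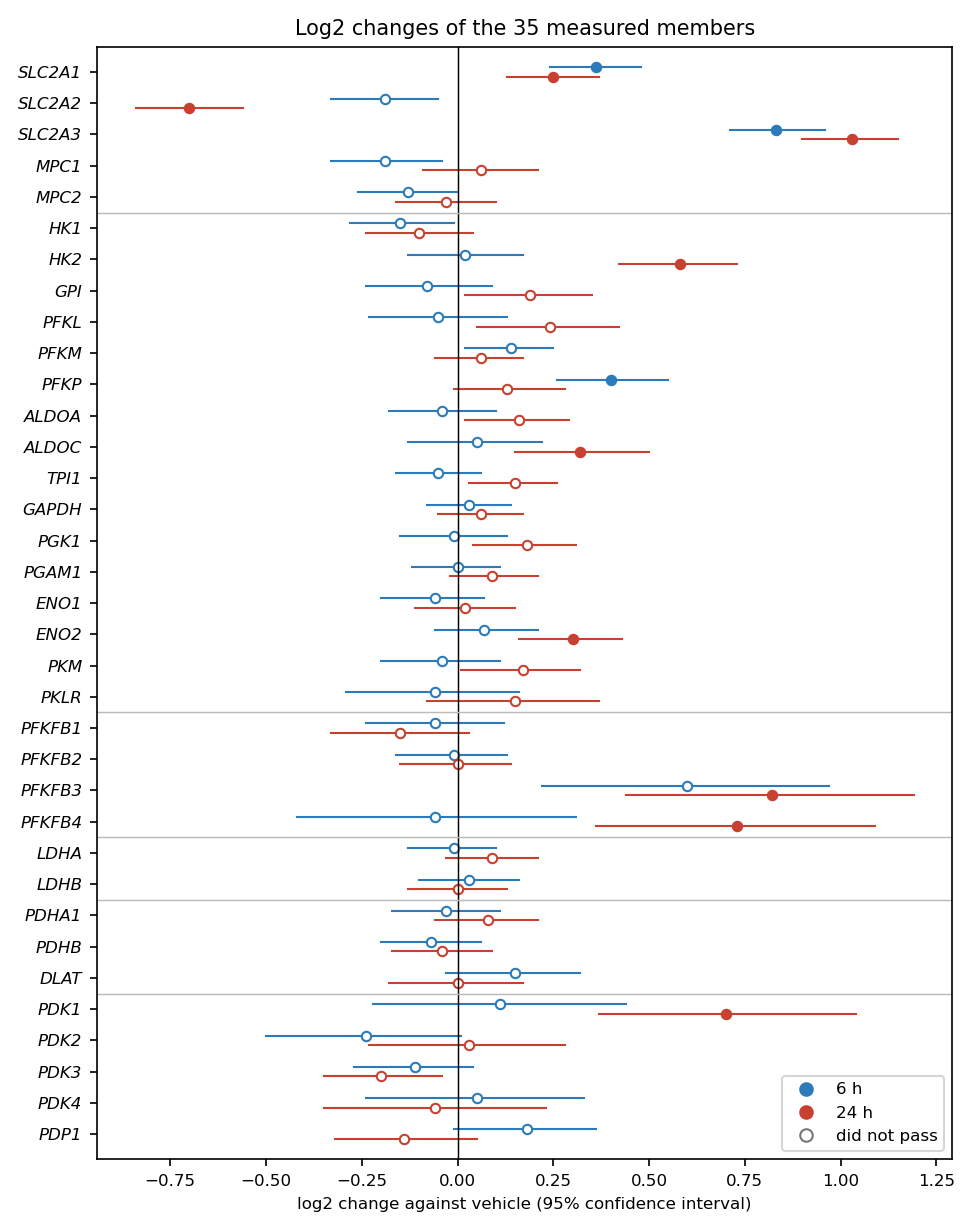
Log2 change against vehicle (x axis) of the 35 measured members, grouped by role, at 6 h (blue) and 24 h (red), with 95% confidence intervals from limma and 3 arrays per group. Filled points passed at an adjusted p under 0.05, 3 at 6 h and 9 at 24 h, from -0.70 for SLC2A2 to 1.03 for SLC2A3.

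Of the 5 measured transporters, 2 rose and 0 fell at 6 h, and 2 rose and 1 fell at 24 h. SLC2A3 encodes GLUT3, a high-affinity glucose transporter best known from neurons. Its signals were 10.45, 10.44 and 10.51 in vehicle, 11.24, 11.28 and 11.37 at 6 h and 11.53, 11.45 and 11.49 at 24 h. Every treated array lay above every vehicle array, and the 24 h arrays lay above the 6 h arrays. SLC2A3 rose by 0.83 ± 0.06 at 6 h (limma adjusted p = 1.65e-05) and by 1.03 ± 0.06 at 24 h (adjusted p = 1.85e-06), the latter 2.04-fold (95% confidence interval 1.87 to 2.22). The other 2 probe sets of SLC2A3 rose as well, by 1.03 and 1.07 at 24 h. All 3 are of the kinds that can share probes with other genes. A pair of probe sets annotated to both SLC2A3 and its close relative SLC2A14 had means of 10.10 ± 0.17 and 9.55 ± 0.10 in vehicle and of 11.13 ± 0.01 and 10.47 ± 0.05 at 24 h (SD, n = 3), so the assignment to SLC2A3 rather than SLC2A14 is uncertain.

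SLC2A1 encodes GLUT1, the transporter of most dividing cells. Its signals were 9.74, 9.72 and 9.85 in vehicle, 10.17, 10.11 and 10.11 at 6 h and 10.03, 10.05 and 10.00 at 24 h. Both treated groups lay above vehicle, and the 24 h arrays lay below the 6 h arrays. SLC2A1 rose by 0.36 ± 0.06 at 6 h (adjusted p = 0.00563) and by 0.25 ± 0.06 at 24 h (adjusted p = 0.0173), and the difference between the times did not pass (-0.10 ± 0.06, adjusted p = 0.269). The 24 h call was lost without vehicle replicate 1 or 24 h replicate 1 or 2 (at most 0.0592), when the 6 h arrays stayed out of the fit and with probe sets averaged. Its probe set without shared probes had 0.26 at 6 h and 0.15 at 24 h and passed at neither. That set lay at a lower signal, with 39.5% of genes at or below it, against 86.8% for the set read.

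SLC2A2 encodes GLUT2, the low-affinity transporter through which hepatocytes exchange glucose with blood. Its signals were 7.76, 7.88 and 7.72 in vehicle, 7.58, 7.61 and 7.61 at 6 h and 7.01, 7.07 and 7.17 at 24 h. The 3 groups did not overlap, with the 6 h arrays below vehicle and the 24 h arrays lowest. The 6 h difference of -0.19 ± 0.06 did not pass (adjusted p = 0.149). At 24 h SLC2A2 fell by 0.70 ± 0.06, or 1.63-fold (95% confidence interval 1.48 to 1.79; adjusted p = 7.04e-05). Among the 9 hepatocyte markers, the plasma protein genes FGB (-0.67 ± 0.06) and TTR (-0.55 ± 0.07) fell at 24 h too and 0 rose. They are 22.2% of these markers, where 2.80% of all genes fell. The part of the marker changes in the SLC2A2 value was not tested.

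Within each array, SLC2A3 gained 1.73 log2 units on SLC2A2 between vehicle and 24 h. Counted from the vehicle mean, the difference between both genes was 1.65 to 1.84 at 24 h and -0.12 to 0.11 in vehicle, without overlap. The two-sided exact permutation p was 0.10, the smallest that 3 arrays against 3 allow. Such within-array differences were taken for 12 pairs of related genes at 2 times, 24 comparisons in all, and groups stayed apart in 6 pairs at 6 h and 10 at 24 h. All of those had an exact p of 0.10, or 0.15 after Benjamini-Hochberg adjustment over the 24. The pairs were chosen after the calls were seen, and most set a member that rose against a relative that did not. Separation of these pairs therefore follows in part from the calls. The share of separate groups among other pairs was not computed. Among 19775 single genes, all treated arrays lay above vehicle for 2086 at 6 h and 2776 at 24 h, and below it for 2034 and 1770.

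MPC1 and MPC2 form the mitochondrial pyruvate carrier, and neither passed against vehicle. MPC1 had 11.26, 11.19 and 11.30 in vehicle, 11.10, 11.11 and 10.98 at 6 h and 11.36, 11.39 and 11.19 at 24 h, low at 6 h. It rose from 6 h to 24 h by 0.25 ± 0.07 (adjusted p = 0.0336), a call lost when any 6 h array, 24 h replicate 1 or 24 h replicate 2 was omitted (at most 0.128). The call was also lost with the replicate number as a block (0.0531), with quantile normalization (0.0744) and with probe sets averaged (0.18, adjusted p = 0.0657). A second MPC1 probe set had 0.17 at 6 h, where the first had -0.19 ± 0.07, and neither passed. MPC2 had -0.03 ± 0.06 at 24 h. Its probe set without shared probes fell by 0.31 (adjusted p = 0.0235 over all probe sets), so the probe sets of MPC2 disagreed. The set that fell lay at a lower signal, with 51.3% of genes at or below it, against 94.4%.

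**Figure D2:**
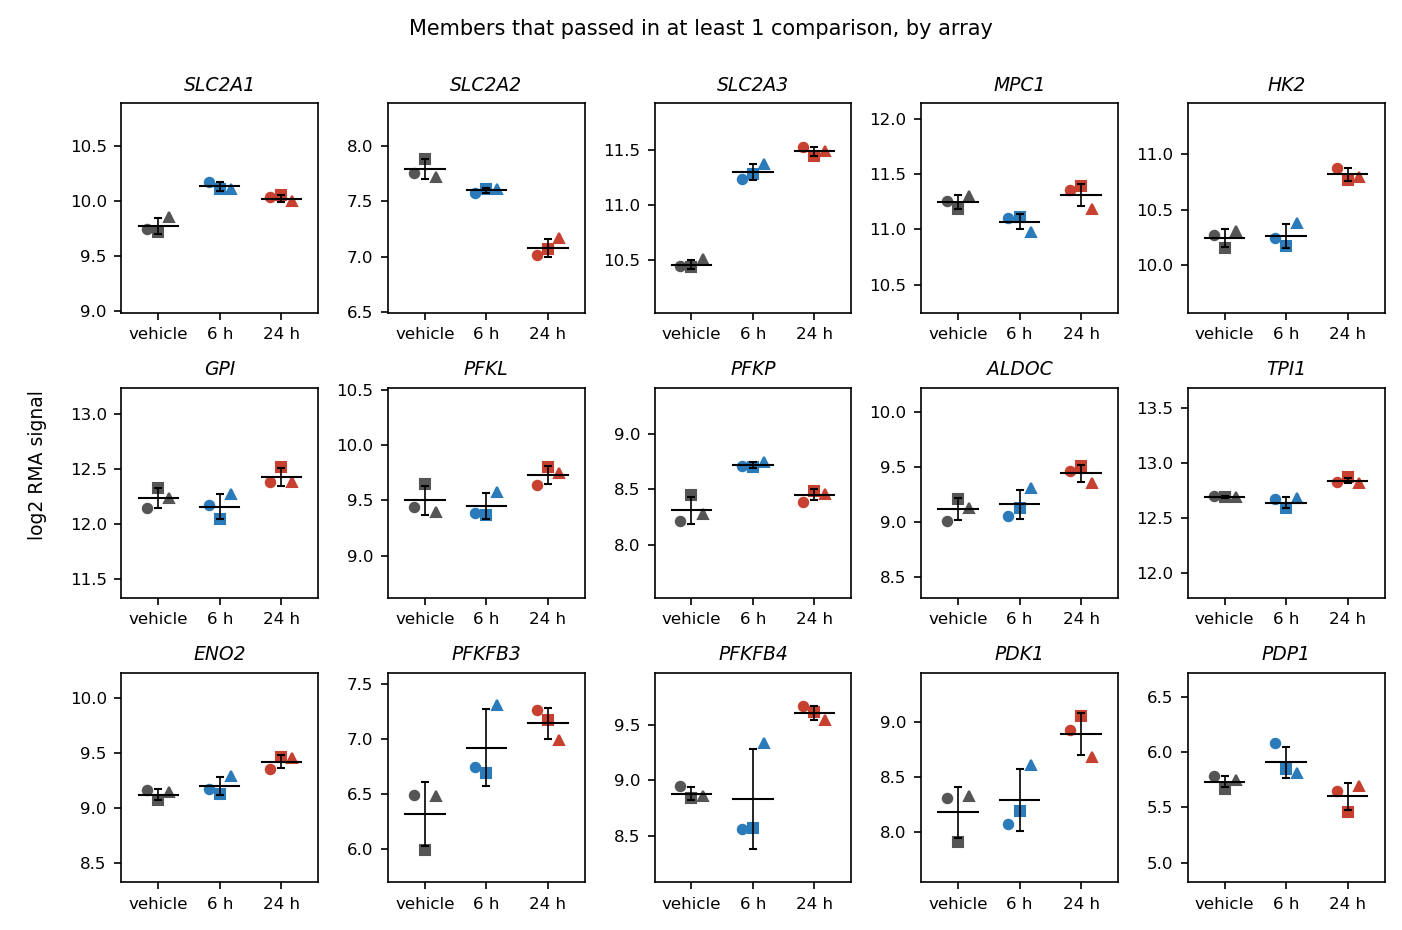
Log2 signal of each array for the 15 members that passed in at least 1 comparison, with vehicle in grey, 6 h in blue and 24 h in red. Circles, squares and triangles are replicates 1, 2 and 3, and bars are means ± SD. SLC2A3 and HK2 stand clear of vehicle at 24 h and SLC2A2 stands below it, whereas PFKFB3, PFKFB4 and PDK1 spread widely at 6 h, with replicate 3 the highest.

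Of the 16 members that encode the enzymes from hexokinase to pyruvate kinase, 1 rose at 6 h and 3 at 24 h. By limma 0 fell at either time, where 1.91% and 2.80% of all genes fell. The rises are 6.25% and 18.8%, where 1.64% and 5.38% of all genes rose. Unadjusted, 3 (18.8%) and 9 (56.2%) had a p under 0.05, where 16.3% and 21.2% of all genes did, so the count at 6 h was near the background. HK2 encodes the inducible hexokinase, which traps glucose in the cell by phosphorylation. Its signals were 10.27, 10.15 and 10.31 in vehicle, 10.24, 10.17 and 10.38 at 6 h and 10.88, 10.77 and 10.80 at 24 h. Vehicle and 6 h arrays overlapped, and the 24 h arrays lay above both. HK2 rose by 0.58 ± 0.07 at 24 h, or 1.49-fold (95% confidence interval 1.34 to 1.66; adjusted p = 6.65e-04), with 0.02 ± 0.07 at 6 h (adjusted p = 0.922).

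Other probe sets of HK2 gave another course. They had 0.26 and 0.31 at 6 h and 0.24 and 0.06 at 24 h, and none of these passed. They lay at lower signals, with 48.9% and 41.5% of genes at or below them, against 90.7% for the probe set read. With probe sets averaged, the change of HK2 from 6 h to 24 h was 0.10 (adjusted p = 0.329) in place of 0.56 ± 0.07 (adjusted p = 4.88e-04). HK1, the hexokinase of most tissues, had -0.15 ± 0.06 at 6 h and -0.10 ± 0.06 at 24 h and did not pass. Within arrays HK2 gained 0.68 log2 units on HK1 by 24 h, with 0.60 to 0.73 against -0.18 to 0.15 in vehicle.

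The 3 phosphofructokinase subunit genes, which encode the main control point of the pathway, took different courses. PFKP, the platelet-type subunit, had 8.21, 8.45 and 8.28 in vehicle, 8.71, 8.70 and 8.75 at 6 h and 8.39, 8.49 and 8.46 at 24 h. The 6 h arrays lay above all others, and the 24 h arrays overlapped vehicle. PFKP rose by 0.40 ± 0.07 at 6 h (adjusted p = 0.00828), had 0.13 ± 0.07 at 24 h (adjusted p = 0.284), and fell by 0.27 ± 0.07 from 6 h to 24 h (adjusted p = 0.0211). That fall was lost without any 1 of the 6 h arrays or 24 h replicate 1 or 3 (up to 0.0757). A second probe set of PFKP had 0.05 at 6 h and did not pass. It lay at a lower signal, with 34.5% of genes at or below it, against 70.1%.

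PFKL, the liver-type subunit, had -0.05 ± 0.08 at 6 h and 0.24 ± 0.08 at 24 h (adjusted p = 0.114), and rose between the times by 0.28 ± 0.08 (adjusted p = 0.0429). The rise was lost without vehicle replicate 1, 6 h replicate 1 or 2, or 24 h replicate 2 or 3 (up to 0.163). Against vehicle PFKL passed at 24 h without vehicle replicate 2 (0.31, adjusted p = 0.0398). PFKM, the muscle-type subunit, had 0.14 ± 0.05 and 0.06 ± 0.05 and did not pass, at a low signal with 34.0% of genes at or below it. Within arrays PFKP gained 0.45 log2 units on PFKL at 6 h and stood at -0.10 at 24 h, apart from vehicle both times.

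Further down the pathway the aldolase and the enolase that rose are those best known from brain. ALDOC rose by 0.32 ± 0.08 at 24 h (adjusted p = 0.0308), with arrays at 9.35 to 9.51 against 9.01 to 9.21 in vehicle. ENO2 rose by 0.30 ± 0.06 (adjusted p = 0.0130), with arrays at 9.35 to 9.46 against 9.07 to 9.16. In both genes the 24 h arrays lay above all vehicle and 6 h arrays. ALDOC was lost when replicate 1 or 3 of vehicle or replicate 1 or 2 of 24 h was omitted (adjusted p at most 0.107) and with array weights, and ENO2 without 24 h replicate 2 (0.0507).

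Their widely expressed counterparts ALDOA (0.16 ± 0.06, adjusted p = 0.168) and ENO1 (0.02 ± 0.06, adjusted p = 0.896) did not pass at 24 h. Within arrays ENO2 gained 0.28 on ENO1, with 0.22 to 0.36 at 24 h against -0.14 to 0.07 in vehicle. ALDOC gained 0.17 on ALDOA, with 0.09 to 0.26 against -0.06 to 0.07. The pyruvate kinases PKM and PKLR, the latter the liver and red cell form, had 0.17 ± 0.07 and 0.15 ± 0.10 at 24 h, and the difference between them was 0.02 with overlapping groups.

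The remaining enzymes had small positive changes at 24 h that did not pass against vehicle. GPI, which isomerises glucose phosphate, had 0.19 ± 0.07 (adjusted p = 0.167), and TPI1, the triosephosphate isomerase, 0.15 ± 0.05 (0.115). The kinase PGK1 had 0.18 ± 0.06 (0.116), the mutase PGAM1 0.09 ± 0.05 (0.342) and the dehydrogenase GAPDH 0.06 ± 0.05 (0.530). Of the 16 enzymes, 15 had a positive change at 24 h and 6 at 6 h, HK1 being the negative value at 24 h, while 51.1% and 51.5% of all genes were positive at those times. From 6 h to 24 h, GPI rose by 0.26 ± 0.07 (adjusted p = 0.0371) and TPI1 by 0.20 ± 0.05 (0.0269).

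With an intensity trend and a robust prior in the fit, 11 members (31.4%) rose at 24 h, the additional ones being ALDOA, PGK1 and TPI1, and 7.17% of all genes rose. The log2 difference between the 3′ and 5′ control signals of GAPDH, a sign of RNA integrity, averaged 0.045 ± 0.046, 0.055 ± 0.013 and 0.020 ± 0.0021 for vehicle, 6 h and 24 h (SD, n = 3), and that of actin 0.28 ± 0.11, 0.29 ± 0.015 and 0.32 ± 0.078. The part of these values in the small changes was not tested.

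Of the 4 PFKFB regulators, 2 rose at 24 h. PFKFB3 encodes the form that mostly makes the activator of phosphofructokinase. Its signals were 6.49, 5.99 and 6.48 in vehicle, 6.75, 6.69 and 7.31 at 6 h and 7.26, 7.17 and 6.99 at 24 h. All treated arrays lay above all vehicle arrays, with vehicle replicate 2 low and 6 h replicate 3 high in their groups. PFKFB3 rose by 0.82 ± 0.17 at 24 h, or 1.76-fold (95% confidence interval 1.36 to 2.29; adjusted p = 0.0134), while 0.60 ± 0.17 at 6 h did not pass (adjusted p = 0.0893). The 24 h call was lost without 24 h replicate 1 (0.0536), the 6 h change passed with an intensity trend (0.0396), and PFKFB3 had a single probe set, of a kind that can share probes.

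PFKFB4, a hypoxia-inducible form, had 8.95, 8.84 and 8.86 in vehicle, 8.56, 8.57 and 9.34 at 6 h and 9.67, 9.62 and 9.55 at 24 h. The 24 h arrays lay above all others, and the 6 h arrays fell on both sides of vehicle. PFKFB4 rose by 0.73 ± 0.17 at 24 h against vehicle, or 1.65-fold (95% confidence interval 1.29 to 2.13; adjusted p = 0.0216), and by 0.78 ± 0.17 against 6 h (adjusted p = 0.00933). The call against vehicle was lost without any 1 of the vehicle or 24 h arrays (up to 0.0684) and with array weights, while that against 6 h passed whichever array was left out. At 6 h PFKFB4 had -0.06 ± 0.17. Without 6 h replicate 3 it passed as a fall of 0.32 (adjusted p = 0.0445), so that the members that fell at 6 h numbered 1 in place of 0.

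A second PFKFB4 probe set had 0.38 at 24 h (adjusted p = 0.0693 over all probe sets) and 0.34 from 6 h to 24 h (0.0730). It lay at a lower signal, with 48.5% of genes at or below it, against 77.5%. PFKFB1, the liver form, had -0.06 ± 0.08 at 6 h and -0.15 ± 0.08 at 24 h, and PFKFB2, the heart form, -0.01 ± 0.07 and -0.00 ± 0.07, and neither passed. Within arrays PFKFB4 gained 0.73 on PFKFB2 by 24 h and PFKFB3 gained 0.82, both apart from vehicle.

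The lactate dehydrogenase genes did not pass in any of the 3 comparisons. LDHA, the subunit that favours lactate formation, had vehicle, 6 h and 24 h means of 13.97 ± 0.03, 13.96 ± 0.05 and 14.06 ± 0.04 (SD, n = 3). Its change at 24 h was 0.09 ± 0.05 (adjusted p = 0.364), with the 24 h arrays above vehicle. LDHB, the subunit of oxidative tissues, had 5.65 ± 0.02, 5.69 ± 0.10 and 5.65 ± 0.02. LDHB was read at a low signal, with 36.0% of genes at or below its probe set. A second probe set, with 5.99% of genes at or below it, had -0.19 at 24 h and did not pass. Such signals limit what can be detected.

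The PDK kinases hold pyruvate dehydrogenase inactive, and of the 4 measured only PDK1 passed, in the comparisons of 24 h with vehicle and with 6 h. PDK1, the form best known as a hypoxia target, had 8.31, 7.91 and 8.33 in vehicle, 8.07, 8.19 and 8.61 at 6 h and 8.93, 9.05 and 8.68 at 24 h. The 24 h arrays lay above all others, with the lowest of them close to 6 h replicate 3. PDK1 rose by 0.70 ± 0.15 at 24 h, or 1.63-fold (95% confidence interval 1.30 to 2.05; adjusted p = 0.0155), with 0.11 ± 0.15 at 6 h (adjusted p = 0.782) and a rise of 0.60 ± 0.15 between the times (adjusted p = 0.0230). A second PDK1 probe set rose by 0.55 at 24 h (adjusted p = 0.0309 over all probe sets), and the third had 0.70 (0.152). The call against vehicle was lost without vehicle replicate 2 or 24 h replicate 1 or 2 (up to 0.0677) and with array weights, and that against 6 h without replicate 1 or 2 of either time (up to 0.0973).

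PDK4, the form induced by fasting, had 3.79, 4.24 and 3.58 in vehicle, 3.94, 3.83 and 3.99 at 6 h and 3.88, 3.79 and 3.77 at 24 h. Both treated groups lay within the range of the vehicle arrays. Its change was 0.05 ± 0.13 at 6 h and -0.06 ± 0.13 at 24 h (95% confidence interval -0.35 to 0.23; adjusted p = 0.858). PDK4 was read at the low end of the signal range, where 10.8% of genes lay at or below its probe set, and its other 2 probe sets had -0.04 and 0.08 at 24 h. Those 2 probe sets lay lower still, with 7.10% and 2.72% of genes at or below them. No change of the PDK4 signal passed. So near the floor of the signal range, the interval describes the array signal and does not bound a change of the transcript.

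PDK2, the most widespread form, had 7.96, 8.45 and 8.10 in vehicle, 7.94, 8.01 and 7.84 at 6 h and 8.08, 8.35 and 8.17 at 24 h. The vehicle arrays overlapped both treated groups, with vehicle replicate 2 high, and the changes of -0.24 ± 0.12 and 0.03 ± 0.12 did not pass. PDK3 had 8.10, 8.07 and 8.07 in vehicle, 7.85, 7.96 and 8.09 at 6 h and 7.96, 7.78 and 7.92 at 24 h. Its 24 h arrays lay below vehicle, but the change of -0.20 ± 0.07 did not pass (adjusted p = 0.129), and its 5 probe sets ran from -0.32 to 0.17.

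Within arrays PDK1 gained 0.90 log2 units on PDK3 by 24 h, with 0.66 to 1.18 against -0.26 to 0.15 in vehicle. On PDK2 it gained 0.68, with 0.50 to 0.84 against -0.55 to 0.34. At 6 h the groups of both pairs overlapped.

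**Figure D3:**
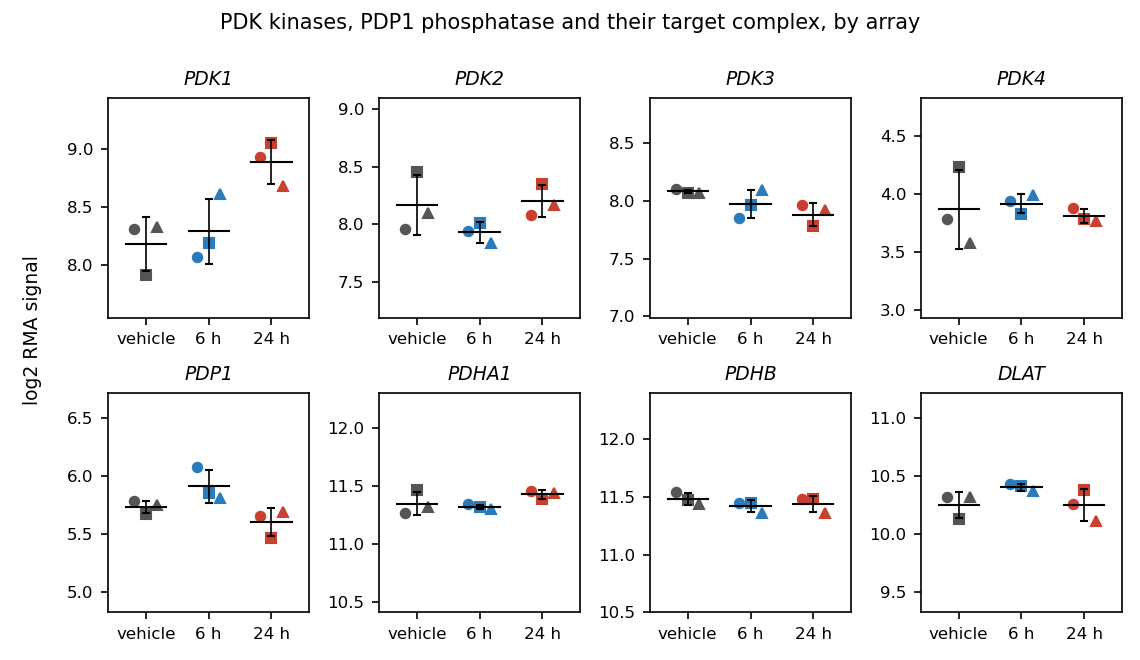
Log2 signal of each array for the PDK kinases, the phosphatase PDP1 and the pyruvate dehydrogenase subunits PDHA1, PDHB and DLAT, with vehicle in grey, 6 h in blue and 24 h in red, symbols for replicates 1, 2 and 3, and bars for mean ± SD. The PDK1 arrays at 24 h (8.68 to 9.05) lie above its vehicle arrays (7.91 to 8.33), while PDK4 stays between 3.58 and 4.24 on all 9 arrays.

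PDP1, the phosphatase that reverses the action of the kinases, had 5.78, 5.67 and 5.75 in vehicle, 6.08, 5.85 and 5.81 at 6 h and 5.65, 5.46 and 5.69 at 24 h. The 6 h arrays lay above vehicle and above the 24 h arrays, and the 24 h arrays overlapped vehicle. PDP1 did not pass against vehicle (0.18 ± 0.08 at 6 h and -0.14 ± 0.08 at 24 h), and it fell by 0.32 ± 0.08 from 6 h to 24 h (adjusted p = 0.0289). That call was lost without replicate 1 or 2 of either time (up to 0.110) and with probe sets averaged. The pyruvate dehydrogenase subunits themselves did not pass in any of the 3 comparisons. At 24 h the catalytic subunit genes PDHA1 and PDHB had 0.08 ± 0.06 and -0.04 ± 0.06, and DLAT, which encodes the core of the complex, had -0.00 ± 0.08 after 0.15 ± 0.08 at 6 h.

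The comparison of 24 h with 6 h is also the test of whether the changes against vehicle differ between the times, since they share the vehicle arrays. Those arrays cancel from it, so exposure to GW7647 and time in culture are not separated. Between the times 10 members rose, or 28.6%, where 9.23% of all genes rose, and 3 fell, or 8.57%, where 4.57% fell. The rises were PFKFB4, PDK1, HK2, PFKL, ALDOC, GPI, MPC1, ENO2, TPI1 and SLC2A3, and the falls SLC2A2, PDP1 and PFKP. HK2, ALDOC, ENO2, PFKFB4 and PDK1 passed at 24 h against both vehicle and 6 h and not at 6 h. By the probe sets read, 20 members passed in no comparison. Their changes were -0.24 to 0.15 at 6 h, -0.20 to 0.18 at 24 h and -0.15 to 0.27 between the times. Among them, another probe set rose between the times for PKLR (0.28, limma adjusted p = 0.0190 over all probe sets) and for ALDOA (0.37, 0.0384). Both genes also rose between the times with probe sets averaged, and another MPC2 probe set fell at 24 h, as given above.

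Many of the calls between the times were lost when a single array was left out. Calls over all genes, 2729 in the main fit, changed too. They numbered 1739 without 6 h replicate 1, 1519 without 6 h replicate 2 and 3082 without vehicle replicate 2. The 10 rises became 2 without 6 h replicate 1, 6 h replicate 2 or 24 h replicate 2, 4 when 24 h replicate 1 and 5 when 24 h replicate 3 was omitted, and the 3 falls became 1 without 6 h replicate 1, 6 h replicate 2 or 24 h replicate 1. The 2 rises are 5.71% of members, where 6.27%, 5.00% and 6.01% of all genes rose, so with 1 of these arrays omitted the members' share was near the background. With the replicate number as a block it was 8.57% against 7.43%. With quantile normalization 5 rose, or 14.3% against 7.37%, and 2 fell. HK2, PFKFB4 and SLC2A2 passed whichever array was left out. SLC2A3 (0.19 ± 0.06, adjusted p = 0.0455) was lost when any array but vehicle replicate 2 and 6 h replicate 3 was omitted (at most 0.165), and TPI1 without any 1 of the 6 h or 24 h arrays (up to 0.115). GPI was lost when 6 h replicate 1, 6 h replicate 2 or a 24 h array was omitted (at most 0.154). ALDOC (0.28 ± 0.08) was lost without vehicle replicate 3, 6 h replicate 1 or 2 or 24 h replicate 1 or 2 (up to 0.157), and ENO2 (0.23 ± 0.06) without 6 h replicate 1 or 2 or 24 h replicate 2 or 3 (up to 0.130).

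**Figure D4:**
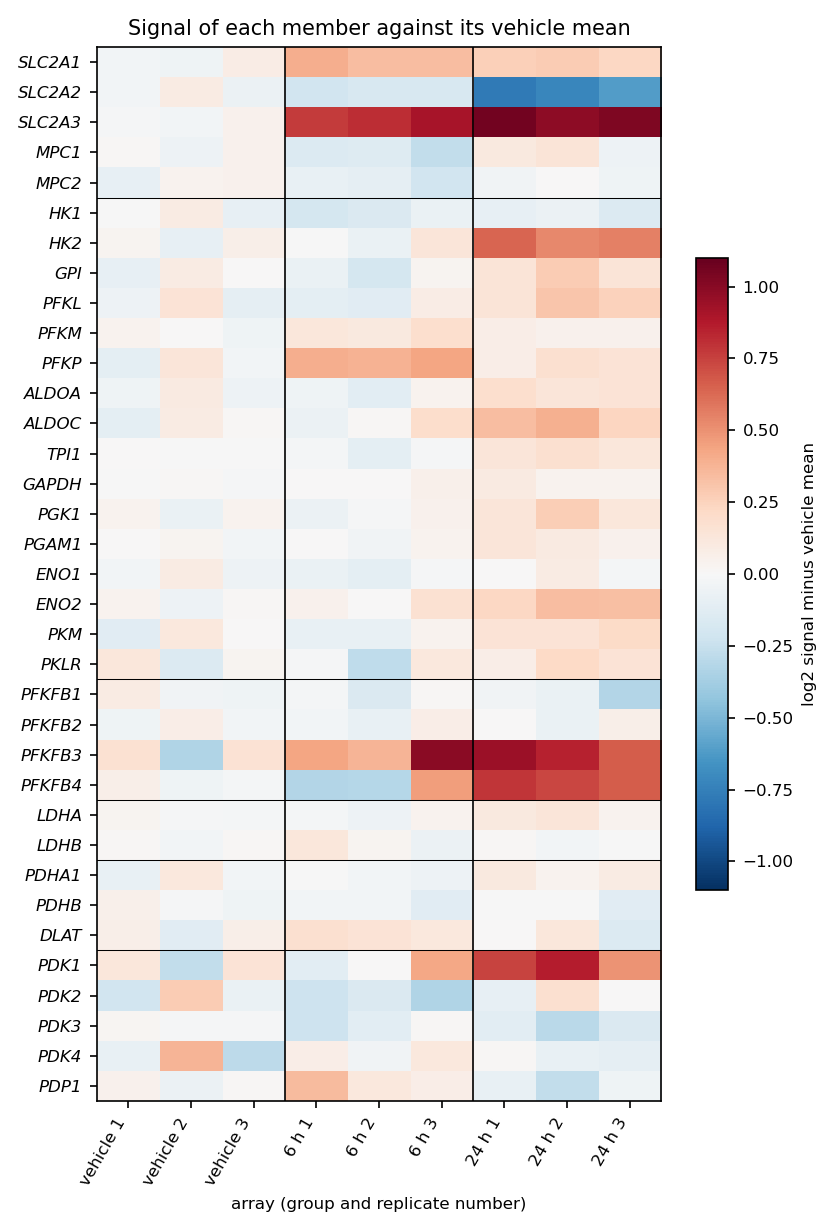
Signal of each of the 35 members (rows) on each of the 9 arrays (columns), as the log2 difference from the mean of its 3 vehicle arrays, with red higher and blue lower. Replicate 3 of the 6 h group is redder than replicates 1 and 2 for PFKFB3, PFKFB4 and PDK1, SLC2A3 is red on all treated arrays, and SLC2A2 is blue at 24 h.

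Replicate 3 of the 6 h group stood high among these genes. It was the highest 6 h array for 26 of the 35 members (74.3%) and for 7 of the 8 that rose at 24 h, where it was the highest for 35.5% of all genes. Vehicle replicate 2 was the lowest vehicle array for 7 of the same 8 members, but for 13 of all 35 (37.1%), near the 30.4% of all genes. The 8 members were chosen by their rise against vehicle, which a low vehicle array favours. The cause of these differences between arrays of a group was not tested.

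Promoter sequences were available from RefSeq for 7 of the 8 members that rose at 24 h, and for 34 of the 37 members. The hypoxia response core, ACGTG or GCGTG on either strand, was searched in the 250 bases before each gene start, counting overlapping matches as 1 place; ACGTG also lies within the E-box CACGTG. Before the most upstream start, the core was present for HK2, ALDOC, ENO2, PFKFB3 and PFKFB4. These 5 windows are shown because the gene rose at 24 h and the window held the core. Each ends just before the first exon of its gene, is written 5′ to 3′ along the gene, and has the core on either strand in capitals. In GRCh38.p14 they lie at chr2:74833877-74834126 on the plus strand for HK2, chr17:28576896-28577145 on the minus strand for ALDOC, chr12:6914330-6914579 on the plus strand for ENO2, chr10:6144671-6144920 on the plus strand for PFKFB3 and chr3:48556804-48557053 on the minus strand for PFKFB4.
HK2: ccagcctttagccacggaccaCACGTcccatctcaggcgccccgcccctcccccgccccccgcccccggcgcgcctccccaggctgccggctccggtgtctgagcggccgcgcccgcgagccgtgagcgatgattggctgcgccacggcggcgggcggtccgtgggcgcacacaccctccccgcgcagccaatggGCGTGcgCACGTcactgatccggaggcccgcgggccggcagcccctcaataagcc
ALDOC: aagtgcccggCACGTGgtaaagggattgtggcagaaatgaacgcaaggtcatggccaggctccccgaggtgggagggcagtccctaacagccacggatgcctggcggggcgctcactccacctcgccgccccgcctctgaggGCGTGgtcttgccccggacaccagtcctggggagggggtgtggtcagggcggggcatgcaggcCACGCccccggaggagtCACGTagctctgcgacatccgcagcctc
ENO2: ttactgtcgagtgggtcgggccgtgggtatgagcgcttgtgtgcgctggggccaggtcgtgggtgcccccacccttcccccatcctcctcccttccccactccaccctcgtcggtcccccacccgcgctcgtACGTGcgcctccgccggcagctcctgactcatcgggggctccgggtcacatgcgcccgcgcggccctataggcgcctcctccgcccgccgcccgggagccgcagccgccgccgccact
PFKFB3: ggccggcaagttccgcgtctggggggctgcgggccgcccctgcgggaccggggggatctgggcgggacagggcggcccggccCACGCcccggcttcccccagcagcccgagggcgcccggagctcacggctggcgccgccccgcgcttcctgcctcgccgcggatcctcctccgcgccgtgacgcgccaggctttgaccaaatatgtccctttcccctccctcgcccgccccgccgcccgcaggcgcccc
PFKFB4: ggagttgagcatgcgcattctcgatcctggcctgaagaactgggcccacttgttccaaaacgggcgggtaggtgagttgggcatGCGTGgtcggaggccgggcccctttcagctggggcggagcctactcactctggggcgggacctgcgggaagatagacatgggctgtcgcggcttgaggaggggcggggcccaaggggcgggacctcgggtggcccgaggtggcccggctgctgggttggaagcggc
HK2 had 3 places with the core, ALDOC 4, with 1 E-box, and ENO2, PFKFB3 and PFKFB4 1 each. The single window of SLC2A1 and the most upstream window of PDK1, which rose as well, held 0, and a second PDK1 window held 2.

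Such a short motif is common. It was present in 43.2% of the windows of 35114 gene starts, in 51.5% of the 66 windows of members, in 8 of 10 windows of members that rose at 24 h and in 16 of 40 windows of members that passed in no comparison. Counted by gene, with a match before any of its starts, the shares were 47.4% of all genes, 76.5% of 34 members, 6 of 7 that rose (85.7%) and 13 of 19 that passed in no comparison (68.4%), a smaller gap than by window. The median share of G and C in the windows was 58.0%, 67.2%, 73.2% and 64.0% in the same order, and its part in the counts was not tested. The E-box, which contains ACGTG, was in 6.35% of all windows and 15.2% of members' windows. It was in 3 of 10 windows of members that rose and 6 of 40 of members that passed in no comparison. Counted by gene, the E-box was found for 7.73% of all genes, 29.4% of members, 3 of 7 that rose and 6 of 19 that passed in no comparison. The PPAR response element was searched only as an exact direct repeat of the half-site AGGTCA with a single base between. It was in 0 of the 66 windows of members and in 0.0171% of all. At so low a share over all windows, its absence from 66 is uninformative. The half-site alone was in 10.6% of members' windows and 12.1% of all. A match is a description of the letters in a window, and binding was not measured on these arrays.

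Genes of adjoining pathways were described from further lists. Over all genes, 1.64% rose and 1.91% fell at 6 h, and 5.38% rose and 2.80% fell at 24 h. An unadjusted p under 0.05 was found for 16.3% and 21.2% of all genes at those times. Of 12 measured other glycolytic isozymes and partners, by limma 0 passed against vehicle at either time, and 1 had an unadjusted p under 0.05 at 6 h and 0 at 24 h. Of 9 other pyruvate genes, 1 fell at 6 h (11.1%). This was PC, the carboxylase that feeds pyruvate into glucose production (-0.32 ± 0.07, adjusted p = 0.0255). The call of PC was lost when vehicle replicate 1 or a 6 h array was omitted (at most 0.120). At 24 h 0 of these 9 passed by limma, with 2 at an unadjusted p under 0.05. Of 13 other sugar and monocarboxylate carriers, 1 rose and 1 fell at 6 h (7.69% each), SLC2A8 (0.23 ± 0.06) and SLC2A13 (-0.29 ± 0.07). At 24 h 2 rose (15.4%), SLC2A10 (0.75 ± 0.08, adjusted p = 1.89e-04) and the urate carrier SLC2A9 (0.25 ± 0.07). Of the carriers named, SLC2A10 passed whichever array was left out, and the others were lost without most single arrays (adjusted p up to 0.188).

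Of 6 measured glucose production genes, 3 rose at 24 h. PCK2, the mitochondrial enzyme that makes phosphoenolpyruvate, rose by 1.03 ± 0.06 (adjusted p = 2.92e-06), with arrays at 11.01 to 11.13 against 9.99 to 10.12 in vehicle and 10.07 to 10.17 at 6 h. The glucose phosphatase gene of liver, G6PC1, rose by 0.40 ± 0.07 and its relative G6PC3 by 0.22 ± 0.05, the latter lost without most single arrays (up to 0.106). In the pentose phosphate pathway, which branches off at glucose phosphate, 4 of 7 measured genes (57.1%) rose at 24 h. They were led by PGLS (0.45 ± 0.08), H6PD (0.42 ± 0.06) and TKT (0.25 ± 0.06). H6PD was lost with probe sets averaged, and TKT without vehicle replicate 1 or 24 h replicate 2 or 3 (up to 0.0755). The fourth gene, PGD (0.23 ± 0.06), was lost without 8 of the 9 arrays taken singly (up to 0.116), those 3 included, so that 2 of these 4 genes passed when any 1 of the 3 was omitted.

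Of 13 measured glycogen genes 1 rose at 24 h, the primer gene GYG1 (0.22 ± 0.06), and of 17 citric acid cycle genes 1 rose, the NADP-linked IDH2 (0.48 ± 0.06, adjusted p = 8.32e-04), and 1 fell, IDH3A (-0.21 ± 0.06). The rises are 7.69% and 5.88% of these 2 lists, near the 5.38% of all genes that rose. The fall is 5.88%, where 2.80% of all genes fell. IDH2 was lost without probe sets that can share probes. GYG1 and IDH3A were each lost without 8 of the 9 arrays taken singly (up to 0.134 and 0.137). In glucose production, the pentose phosphate pathway, glycogen and the citric acid cycle, by limma 0 genes passed at 6 h, and 1, 0, 2 and 0 had an unadjusted p under 0.05.

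Among 20 transcriptional regulators of these genes, 1 rose and 2 fell at 6 h and 5 rose at 24 h. These are 5.00%, 10.0% and 25.0%, where 1.64%, 1.91% and 5.38% of all genes were called in that direction. PPARA, which encodes the receptor of GW7647, fell by 0.61 ± 0.06 at 6 h (adjusted p = 3.31e-04) and had -0.06 ± 0.06 at 24 h (adjusted p = 0.655). PPARGC1A, a coactivator of oxidative metabolism, had 6.40, 6.18 and 6.14 in vehicle, 5.75, 5.58 and 5.48 at 6 h and 6.74, 6.93 and 6.72 at 24 h. It fell by 0.64 ± 0.09 at 6 h and rose by 0.56 ± 0.09 at 24 h, without overlap between the 3 groups. FOXO1, an insulin-restrained activator of PDK4, rose by 0.35 ± 0.07 at 6 h (lost when vehicle replicate 1, vehicle replicate 2 or a 6 h array was omitted, at most 0.102) and by 0.54 ± 0.07 at 24 h. EGLN3, an oxygen-sensing hydroxylase gene and known hypoxia target, rose by 0.38 ± 0.07 at 24 h (adjusted p = 0.00558). MYC and EGLN1 rose at 24 h as well. MYC had arrays at 11.47 to 11.54 against 11.22 to 11.28 in vehicle, and passed whichever array was left out (limma adjusted p up to 0.0475). EGLN1 had 10.84 to 10.91 against 10.51 to 10.68, and was lost without 8 of the 9 arrays taken singly (up to 0.130). HIF1A, whose product is controlled mainly as a protein, had vehicle, 6 h and 24 h means of 12.28 ± 0.08, 12.48 ± 0.01 and 12.24 ± 0.02 (SD, n = 3) and did not pass against vehicle.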

How the data were processed

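The values were log2 probe set signals as deposited, which the authors made with RMA per the submitters' processing notes. No version of RMA and no chip definition is named there. They ran from 2.66 to 15.0, with 0 missing and array medians of 5.61 to 5.68. Of 54675 probe sets, 62 were controls, 41091 had 1 gene symbol, 1801 several and 11721 none. The Entrez ID was found in the gene list of GRCh38.p14 for 41037 of the 41091 sets, and 0 symbols were updated. Each of 19775 genes was represented by the probe set of highest average signal across the 9 arrays; 10523 genes had several probe sets. No filter on signal was applied.

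A limma 3.58.1 model (lmFit and eBayes with defaults, R 4.3.3) gave each group its mean from all 9 arrays, with 6 residual degrees of freedom and 11.0 after moderation. Files were read with the data.table package (1.17.8). Tests were two-sided and adjusted by Benjamini-Hochberg over all genes, or over all 41091 probe sets where a single probe set is given. The fit was tested on simulated data. Arrays with the same replicate number deviated from their group means with correlations of -0.20 to 0.09, 0 of 9 pairs over 0.1, so the numbers were not used for pairing.

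The members and lists were chosen with earlier results of these data known. Given array by array, by rule, were members that passed with a log2 change of at least 0.5 in either direction and all PDK and PDP genes; SLC2A1, PFKP, MPC1 and PPARGC1A were added after their values were seen. Of each further list up to 3 genes with the largest passing changes were named, and HIF1A, MYC, EGLN1 and PGD were added. Isozyme pairs, promoter motifs and the alternatives for genes of further lists were also chosen after seeing the data. Alternatives changed the model (a replicate block, a fit of the compared groups alone, an intensity trend with robust prior, weights per array), the genes (those above the median signal, averaged probe sets, no shared-probe name endings), the scaling (quantile, centring on medians) and the threshold (adjusted p under 0.01, or 1.5-fold and more), or omitted single arrays.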

Additional observations from a re-analysis of the deposited data

Results flagged for a closer look

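For 13 members the change against vehicle differed between 24 h and 6 h (limma adjusted p under 0.05). The test of that difference is the comparison of 24 h with 6 h. The shared vehicle arrays cancel from it, so longer exposure to GW7647 and longer time in culture cannot be told apart. The change at 24 h was higher by 0.78 log2 units for PFKFB4, 0.60 for PDK1, 0.56 for HK2, 0.28 for PFKL, 0.28 for ALDOC, 0.26 for GPI, 0.25 for MPC1, 0.23 for ENO2, 0.20 for TPI1 and 0.19 for SLC2A3. The difference was -0.27 for PFKP, -0.32 for PDP1 and -0.51 for SLC2A2. PFKP stood above vehicle at 6 h and not at 24 h, whereas the change of SLC2A2 went in the same direction at both times. HK2, PFKFB4 and SLC2A2 kept this call whichever array was left out. With probe sets averaged, however, HK2 had 0.10 (adjusted p = 0.329), and its other probe sets, of lower signal, had -0.03 and -0.24 between the times. A second PFKFB4 probe set, of lower signal, had 0.34 between the times and did not pass (adjusted p = 0.0730 over all probe sets).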

How the results depend on the processing

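With only 3 arrays per group, many calls near the threshold were lost when an array was left out. Over 2052 combinations of member, comparison and alternative, 1891 kept their direction and side of the threshold or stayed below it, 128 lost a call, 33 gained one and 0 reversed. Under all alternatives that measured them, the calls of SLC2A3 at 6 h, SLC2A3 and SLC2A2 at 24 h and PFKFB4 between the times held; SLC2A3 was not measured without shared-probe endings. Leaving out each array gave 261 to 637 of 701 genes called at 6 h, 1005 to 1664 of 1616 at 24 h and 1519 to 3082 of 2729 between the times. Members that rose then numbered 3 at 6 h, 3 to 8 at 24 h and 2 to 13 between the times, and those that fell 0 to 1, 1 and 1 to 3. Counts over all genes fell at 6 h to 436 without vehicle replicate 1 and 282, 261 and 390 without 6 h replicates 1, 2 and 3. At 24 h they fell to 1076, 1055 and 1005 without vehicle replicate 1 and 24 h replicates 1 and 2, and between the times to 1739 and 1519 without 6 h replicates 1 and 2.

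With the replicate block, 427, 1216 and 2197 genes were called at 6 h, at 24 h and between the times, and the members that rose between the times were 3 in place of 10, a share of 8.57% where 7.43% of all genes rose; the member counts against vehicle did not change. With only the compared groups 454 genes were called at 6 h and 921 at 24 h. An intensity trend gave 1104 and genes above the median signal 1206 at 6 h. Without shared-probe endings 24 members remained, 454 genes were called at 6 h and 1774 between the times, 1 member rose at 6 h, 5 rose and 2 fell at 24 h and 6 rose between the times. Array weights gave 5 rises at 24 h and quantile normalization 5 between the times. An adjusted p under 0.01 gave 234, 695 and 1328 genes, with 2 rises at 24 h and 2 rises and 1 fall between the times. At least 1.5-fold gave 78, 173 and 267 genes, with 1 rise at 6 h, 4 at 24 h and 2 rises and 0 falls between the times. Median centring split the 6 h calls into 255 up and 490 down, against 324 and 377, and quantile normalization those between the times into 1457 and 1207, against 1826 and 903. Signals near the low end of the range, as for PDK4, limit what can be detected.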
